A study of Mus musculus with 22 samples.

Results

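Genes that peripheral and central neurons are known to raise after their axon is damaged were followed in noradrenergic cells of the mouse hindbrain: the receptor gene Tnfrsf12a, the transcription factor genes Jun, Klf6 and Sox11, the growth cone gene Gap43, the focal adhesion gene Tes, the transcriptional cofactor gene Ifrd1 and the stress gene Gadd45a. The 8 genes were chosen by name, with earlier results of these libraries known, and all 8 are among the 12596 genes of the deposited table. RNA came from 11 mice on a C57Bl/6 background that carried a Th-cre transgene together with an Slc6a2-eGFP/Rpl10a transgene, the second from a line of mixed B6 and FVB origin. Animals of both treatments carried both transgenes. The tagged ribosomal protein is driven by the noradrenaline transporter gene Slc6a2, so that ribosomes of noradrenergic cells, with the RNA on them, can be immunoprecipitated. In 5 mice the infused gene was hTyr, human tyrosinase, the pigment-forming enzyme, and in 6 control mice it was the fluorescent protein EYFP. Each mouse gave an immunoprecipitate (IP), labelled as noradrenergic, and the RNA before immunoprecipitation (input), labelled as total hindbrain. Groups were therefore hTyr IP (n = 5), EYFP IP (n = 6), hTyr input (n = 5) and EYFP input (n = 6). The labels used here give no age, sex, dose or time after infusion.

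When an axon is cut or poisoned, signals travel from the axon to the nucleus, where kinases of the JNK pathway phosphorylate c-Jun, the product of Jun. c-Jun then acts with partners such as ATF3, SOX11 and KLF6 on genes that rebuild the growth cone, the motile tip of a regrowing axon. GAP-43 is an abundant growth cone protein, and TWEAK receptor, the product of Tnfrsf12a, promotes neurite outgrowth. Locus coeruleus neurons, the main noradrenergic cells of the hindbrain, have long, highly branched axons and can regrow them after injury.

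Depth ranged from 12654489 to 19043798 reads in hTyr IP and from 15680491 to 20368032 in EYFP IP. Input libraries held from 18771136 to 25100142 reads in hTyr and from 16988860 to 21480570 in EYFP. The noradrenergic label of the IP held in part. The summed level of 14 measured noradrenergic markers (of 15 sought) was 806 to 2083 CPM (reads scaled to the size of the library) in hTyr IP and 686 to 1340 CPM in EYFP IP, against 263 to 322 CPM in the input libraries. Summed CPM of 13 oligodendrocyte markers was 6430 to 8928 in the IP libraries and 6911 to 9590 in the input libraries. The 12 astrocyte markers summed to medians of 5169 CPM in hTyr IP and 5148 in EYFP IP, against 3770 and 3786 in their inputs. The IP thus kept much RNA of other cells, and the summed astrocyte markers had higher medians in it than in the input. All 11 hindbrain markers sought were measured in the input. Markers of cerebellum (7 of 7 measured) ranged lower in the hTyr animals, with 200 to 233 CPM in hTyr input against 217 to 461 in EYFP input and 218 to 267 CPM in hTyr IP against 236 to 546 in EYFP IP. No measured marker of these lists was at 0 in every library of a group. The part of the cerebellar or glial RNA in the results that follow was not tested.

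The promoters of the genes that differed most between the IP groups are shown first, with the capitals marking the KLF box CACCC. On the other strand it reads GGGTG, which is marked too. The stretches are the bases up to 250 before the RefSeq start in GRCm38.p6, read 5′ to 3′ on the gene's strand, with bases that GENCODE M21 places in an exon of the gene left off. Tes lies on chr6:17064899-17065148 (plus strand), Tnfrsf12a on chr17:23677469-23677699 (minus strand) and Ifrd1 on chr12:40223190-40223439 (minus strand). The Ifrd1 stretch lies within the longer GENCODE gene model, between its exons.
Tes: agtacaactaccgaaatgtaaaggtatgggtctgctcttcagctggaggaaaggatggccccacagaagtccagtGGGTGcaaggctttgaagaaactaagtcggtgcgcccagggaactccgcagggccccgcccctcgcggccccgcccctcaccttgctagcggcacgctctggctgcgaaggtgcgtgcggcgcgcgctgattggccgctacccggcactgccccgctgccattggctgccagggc
Tnfrsf12a: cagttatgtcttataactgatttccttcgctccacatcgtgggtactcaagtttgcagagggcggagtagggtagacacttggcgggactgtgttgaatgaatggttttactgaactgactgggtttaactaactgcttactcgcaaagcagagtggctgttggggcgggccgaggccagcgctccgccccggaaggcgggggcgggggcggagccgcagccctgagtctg
Ifrd1: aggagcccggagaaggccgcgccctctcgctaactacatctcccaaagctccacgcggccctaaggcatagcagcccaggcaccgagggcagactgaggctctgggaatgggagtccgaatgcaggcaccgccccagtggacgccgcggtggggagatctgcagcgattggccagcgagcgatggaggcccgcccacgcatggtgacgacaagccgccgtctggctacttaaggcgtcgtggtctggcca

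RefSeq gave a promoter for 7 of the 8 genes, all but Gap43. None of the 7 held the AP-1 site TGANTCA, which 4.15% of the 12446 promoters of genes in the table hold, when searched on both strands over the 250 bases. The CRE core TGACGT (9.81% of those promoters) and the C/EBP-ATF core TGATGCA (1.75%) were found in none of the 7 either. The KLF box was present in 5 of 7 (57.8% of those promoters), at 175 bases before the start in Tes and 13 in Tnfrsf12a, where it lies in the exon bases left off above, and was not found in Ifrd1 or Klf6. The SOX letters ACAAAG were present in 1 of 7, Gadd45a (12.1%).

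The letters TGACATCA are a variant of the CRE and AP-1 sites that the exact letters searched above do not match. They were looked for after these promoters had been read. They were present in the promoters of Jun, Klf6 and Sox11, 3 of 7, and in 1.55% of promoters of genes in the table. Because the letters were picked from these same promoters, the 3 of 7 is a description and no test. The 40 bases around each match are shown because the 3 transcription factor genes share it, again with KLF boxes in capitals too. They are chr4:95052244-95052283 (minus strand) for Jun, chr13:5861354-5861393 (plus strand) for Klf6 and chr12:27342737-27342776 (minus strand) for Sox11. The match began 45 bases before the start in Jun, 119 in Klf6 and 42 in Sox11, where it lies on the other strand and reads TGATGTCA. It overlapped a KLF box in Jun and Sox11.
Jun: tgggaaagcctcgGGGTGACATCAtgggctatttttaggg
Klf6: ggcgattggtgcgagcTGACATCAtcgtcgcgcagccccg
Sox11: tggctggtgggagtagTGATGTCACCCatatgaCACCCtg

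The 8 genes covered a wide range of levels. Per length (RPKM, from the exon lengths of GENCODE M21), Gap43 was the most abundant at 306 ± 27.0 in EYFP IP (SD, n = 6), above 98.9% of the 12087 genes with a length. Jun followed at 17.5 ± 2.49 RPKM and Tnfrsf12a at 8.96 ± 1.25 RPKM in the same group. Gadd45a (7.07 ± 0.886 RPKM), Klf6 (5.53 ± 0.604) and Ifrd1 (5.26 ± 0.526) came next, and the ranges over libraries of these neighbours overlapped. Sox11 had 1.46 ± 0.345 RPKM and Tes, the least abundant, 0.456 ± 0.0763 RPKM.

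Gap43 and Jun kept the first places in all 4 groups by mean RPKM, and Sox11 and Tes the last. In hTyr IP the mean RPKM of Tnfrsf12a was 18.9 ± 6.18 (SD, n = 5), with a range of 12.7 to 29.0 that overlapped the 18.1 to 22.6 of Jun. Tes had 1.10 ± 0.344 RPKM in hTyr IP, with a highest library of 1.53 RPKM, inside the range of 1.40 to 1.82 RPKM of Sox11 there. In the input groups Tes stayed at 0.323 RPKM (hTyr) and 0.316 RPKM (EYFP). The low level of Tes rests on 34 to 170 reads per library, against 5472 to 15098 for Gap43.

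**Figure D1:**
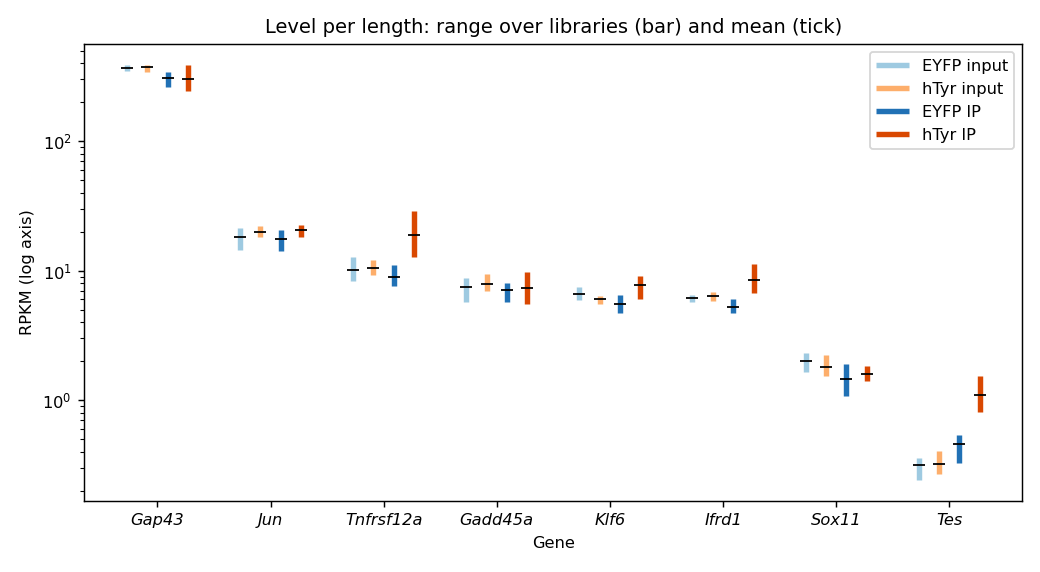
Level per length of each gene in RPKM (vertical log axis), with bars for the lowest to highest library of each group and a tick for the mean. Gap43 stands between mean levels of 303 and 374 RPKM in every group, and Tes lies lowest, with its hTyr IP bar (0.809 to 1.53 RPKM) above its other groups.

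Between treatments in the IP, Tes, Tnfrsf12a and Ifrd1 had every hTyr library above every EYFP library, 3 of the 8 genes, where 0.389% of all genes did. The 8 genes were chosen with this comparison in view, so their differences there are a description and carry no test. In bulk RNA, fewer cells of a type and less RNA per cell cannot be told apart. All levels from here on are log2 CPM, and differences are between log2 values. The median difference of the 8 genes was 0.35, against -0.01 over all genes. It was 0.21 over the 14 noradrenergic markers, of which 11 were above 0. The part of the noradrenergic content in the median of the 8 genes was not tested.

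Tnfrsf12a encodes the receptor of TWEAK, a cytokine of the TNF family (chr17:23675445-23677468, minus strand, GRCm38). Its log2 CPM in hTyr IP was 5.81, 5.16, 4.91, 5.19 and 4.62 in animals IP_501, IP_502, IP_508, IP_509 and IP_510, named here by their IP library as in the labels. In EYFP IP the lowest library was at 3.89, the median at 4.05 and the highest at 4.43. Every hTyr library lay above every EYFP library, with animal IP_501 highest and animal IP_510 nearest to the controls. The mean was 5.14 ± 0.44 (SD, n = 5) against 4.11 ± 0.19 (SD, n = 6), a difference of 1.03 (SE 0.17) or 2.04-fold. It ranked 10th of 12596 genes by the size of a rise.

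Tnfsf12, the gene of the ligand TWEAK, had a mean log2 CPM of 2.82 in hTyr IP and 2.81 in EYFP IP. The difference of 0.01 did not pass (adjusted p = 0.997, limma with Benjamini-Hochberg adjustment over all genes, as for every adjusted p here). Genes past the threshold of 0.05 in the IP numbered 7 of 12596 (0.0556%). Among 11 measured genes of TWEAK receptor signalling (TRAF adaptors, NF-kB subunits and their regulators), 0 passed in this comparison in either direction and 0 had an unadjusted p under 0.05.

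Jun, Klf6 and Sox11 encode transcription factors of the injury response. Jun (chr4:95049034-95052222, minus strand) had 6.15, 6.04, 5.93, 6.17 and 5.85 in hTyr IP, in the same order of animals. In EYFP IP it lay between 5.51 and 6.04 with a median of 5.77. The groups overlapped, and the difference was 0.23 (SE 0.10). Klf6, a zinc-finger factor linked to axon growth in developing and injured neurons (chr13:5861482-5870394, plus strand), had 5.33, 5.31, 4.91, 4.72 and 5.05 in hTyr IP. Its EYFP IP libraries had a lowest value of 4.38, a median of 4.58 and a highest of 4.84.

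Only animal IP_509 of the hTyr group fell below the highest EYFP library in Klf6, and the difference was 0.46 (SE 0.12), or 1.38-fold. Sox11, a SoxC factor of newborn and regenerating neurons (chr12:27334264-27342574, minus strand), had 3.78, 3.82, 3.55, 3.93 and 3.57 in hTyr IP. The EYFP IP libraries spread from 3.18 to 3.98 with a median of 3.55, so that they enclosed every hTyr library. Its difference was 0.16 (SE 0.16).

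Gap43 and Tes act at the growing tip and at adhesions. Gap43 (chr16:42248442-42340651, minus strand) had 9.20, 8.86, 8.82, 8.54 and 8.75 in hTyr IP, and 8.64 to 9.02 with a median of 8.87 in EYFP IP. Its hTyr libraries spread to both sides of the EYFP range, and the difference was -0.03 (SE 0.10), with a sign that changed in 2 of 21 alternative settings. Tes, which encodes testin, a LIM-domain protein of focal adhesions (chr6:17065149-17105828, plus strand), had 3.29, 3.40, 2.49, 2.66 and 2.55 in hTyr IP. In EYFP IP it had a lowest value of 1.23, a median of 1.72 and a highest of 1.91.

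Every hTyr library stood above every EYFP library in Tes, and animals IP_501 and IP_502 stood above the other 3 hTyr animals. The mean was 2.88 ± 0.43 (SD, n = 5) against 1.67 ± 0.25 (SD, n = 6). The difference of 1.21 (SE 0.22), or 2.31-fold, was the largest of the 8 genes and ranked 8th of all genes by the size of a rise. With 5 CPM added before the logarithm it was 0.61, below the 0.86 of Tnfrsf12a under the same setting.

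Ifrd1 and Gadd45a respond to stress in many cell types. Ifrd1, a transcriptional cofactor (chr12:40201567-40248504, minus strand), had 6.05, 5.79, 5.30, 5.53 and 5.30 in hTyr IP. In EYFP IP it lay between 4.79 and 5.14 with a median of 4.94. The groups did not overlap, with animals IP_501 and IP_502 again highest. The difference was 0.65 (SE 0.13), or 1.57-fold, from 4.95 ± 0.14 (SD, n = 6) to 5.59 ± 0.32 (SD, n = 5), and ranked 30th of all genes. Gadd45a, a growth-arrest and DNA-repair gene (chr6:67035096-67037457, minus strand), had 4.11, 3.50, 3.65, 3.30 and 3.79 in hTyr IP and 3.35 to 3.83 with a median of 3.67 in EYFP IP. The hTyr libraries spread to both sides of the EYFP range, and the difference of 0.03 (SE 0.15) changed sign in 4 of 20 alternative settings.

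**Figure D2:**
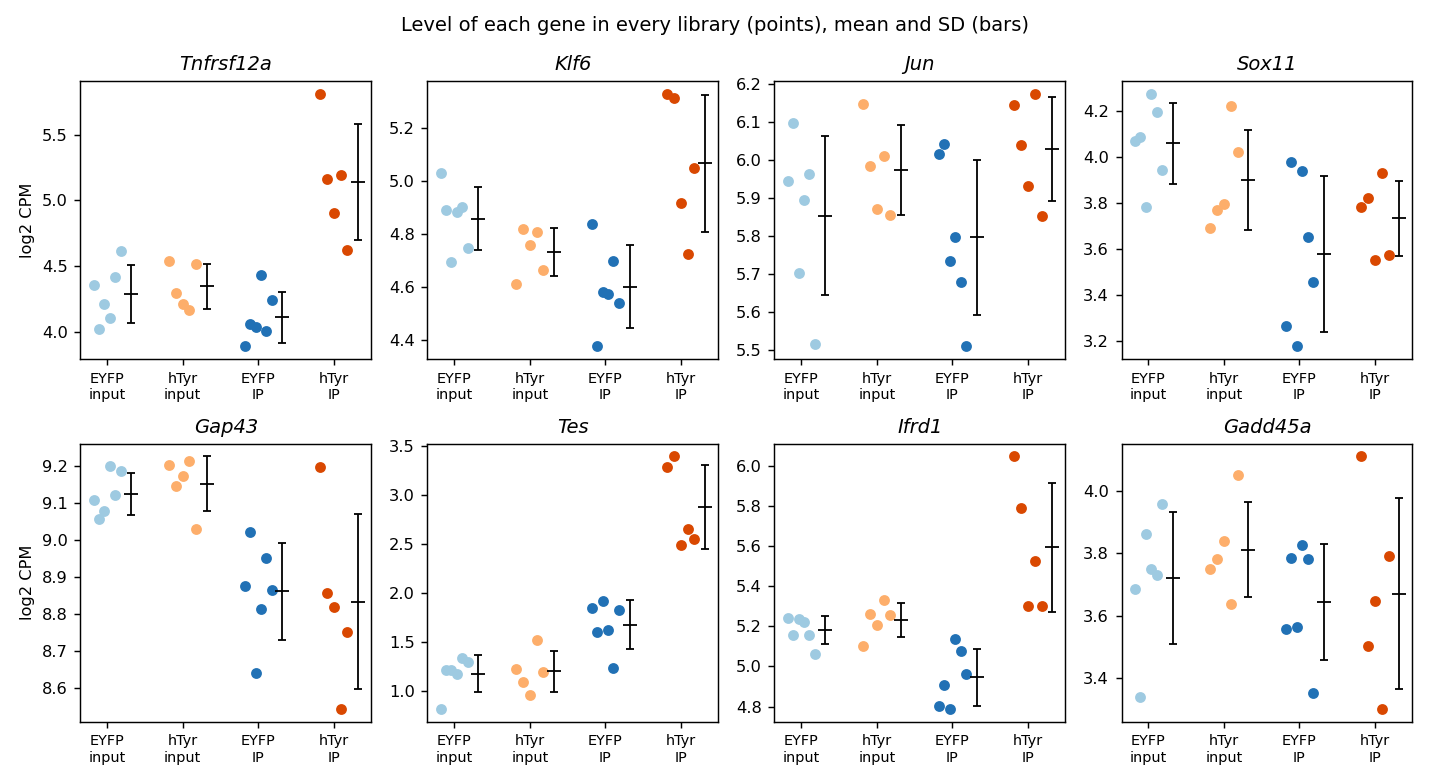
Level of each gene in log2 CPM (vertical axis, own scale per gene) in every library of the 4 groups, with the mean and SD as a bar beside the points. In Tes, Tnfrsf12a and Ifrd1 the hTyr IP points lie above all EYFP IP points, while the 2 input groups overlap in all 8 genes.

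By the size of the difference in the IP the genes were ordered Tes, Tnfrsf12a, Ifrd1, Klf6, Jun, Sox11, Gadd45a and Gap43 on the deposited scale, while with 5 CPM added Tnfrsf12a came before Tes. Klf6 (0.46) is the first outside the 3 genes whose groups do not overlap, and Ifrd1 (0.65) the last inside. Jun, Sox11, Gadd45a and Gap43 ranked 598th, 1432nd, 5075th and 7142nd of 12596.

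The input comparison was not the one in view when the genes were chosen, though earlier results of these libraries were known. In the input, 0 of the 8 genes passed the threshold between hTyr and EYFP, and 0 had an unadjusted p under 0.05. Over all genes 1 passed (0.00794%), a noradrenergic marker that was lower in hTyr input, and 3.03% had an unadjusted p under 0.05. The groups overlapped in all 8 genes, where 0.175% of all genes did not overlap. Adjusted p was 0.990 in 7 of the genes and 0.996 in Tes (limma).

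The intervals of these input differences bound their size. Tnfrsf12a had 4.35 ± 0.17 in hTyr input (SD, n = 5) and 4.29 ± 0.22 in EYFP input (SD, n = 6), with a difference of 0.06 (95% interval -0.18 to 0.29). Tes had 1.22, 1.09, 0.96, 1.52 and 1.19 in hTyr input and 0.81 to 1.34 in EYFP input, with a difference of 0.02 (-0.37 to 0.42). Ifrd1 differed by 0.05 (-0.09 to 0.19) and Klf6 by -0.13 (-0.29 to 0.03). All 4 of these intervals include 0.

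The remaining input differences were 0.12 in Jun (-0.08 to 0.32), -0.16 in Sox11 (-0.40 to 0.08), 0.03 in Gap43 (-0.10 to 0.15) and 0.09 in Gadd45a (-0.15 to 0.33).

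**Figure D3:**
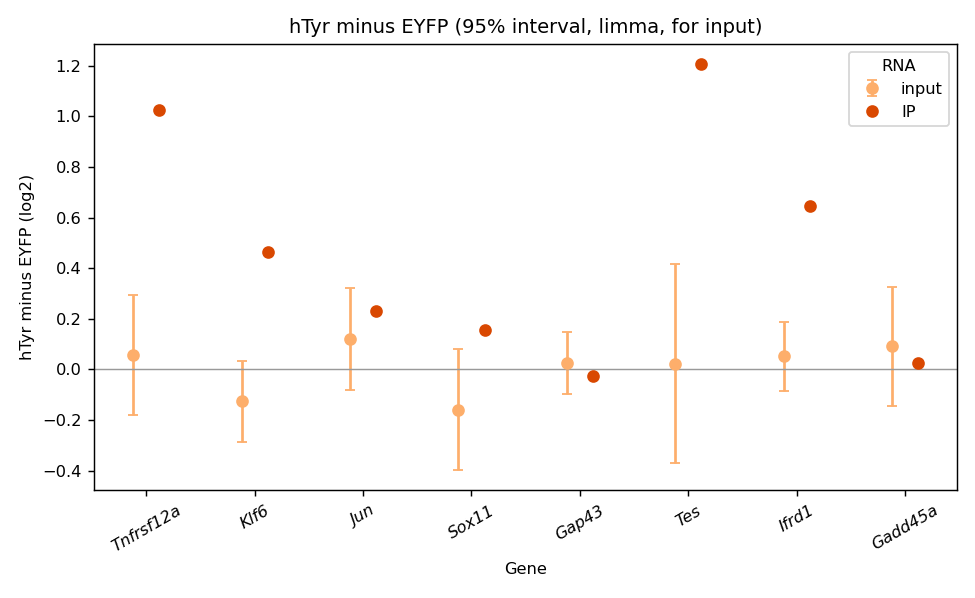
Difference between hTyr and EYFP (log2, vertical axis) in input and in IP for each gene, with 95% intervals from limma for the input. The input intervals of all 8 genes include 0, and the IP points, a description with no interval, lie from -0.03 in Gap43 to 1.21 in Tes.

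IP and input show which RNAs the immunoprecipitation enriched. The main test did not pair the libraries of an animal. An alternative with that pairing, the replicate block, changed no call of the 8 genes. Over both treatments 4 of the 8 genes passed the threshold, 2 higher and 2 lower in IP, where 69.7% of all genes passed (33.5% higher, 36.2% lower). A pass is thus common in this comparison. The treatments were weighted by their animals, which makes this comparison orthogonal to the difference between treatments only in its errors over animals. The IP libraries that entered the choice are part of it, so the calls of the 8 genes are not free of the choice. Their adjusted p in this comparison are given as a description.

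Tes was higher in IP by 1.04 (SE 0.14), or 2.05-fold (adjusted p = 4.33e-07, limma), with IP above input in 10 of 11 animals. In hTyr animals its IP minus input was 2.07, 2.31, 1.53, 1.14 and 1.36, in animals IP_501, IP_502, IP_508, IP_509 and IP_510. In EYFP animals it ran from -0.11 to 1.03, with 5 of 6 above 0. The mean was 1.68 in hTyr animals and 0.50 in EYFP animals, or 3.21-fold and 1.41-fold. No EYFP animal reached the lowest hTyr animal. With 5 CPM added before the logarithm the enrichment of Tes was 0.45.

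Tnfrsf12a was higher in IP by 0.26 (SE 0.11; adjusted p = 0.0282, limma), in 7 of 11 animals. That call rested on the hTyr animals, whose IP libraries entered the choice of the genes, so it is no independent test. IP minus input was above 0 in all 5 hTyr animals, from 0.11 to 1.27. It was above 0 in 2 of 6 EYFP animals, whose values ran from -0.46 to 0.32. Without animals IP_501, IP_502, IP_508 or IP_509 in turn, the enrichment was 0.16, 0.20, 0.22 and 0.19 and did not pass (adjusted p = 0.107, 0.120, 0.0835 and 0.142, limma). It did not pass with quantile normalization (0.21, adjusted p = 0.0835) or median centring (0.21, adjusted p = 0.0853), and was -0.18 in the EYFP animals alone.

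Gap43 was lower in IP by 0.29 on the log2 scale (-0.29, SE 0.06; adjusted p = 0.000147, limma), in 11 of 11 animals, as were 21.4% of all genes. The mean IP minus input was -0.32 in hTyr and -0.26 in EYFP animals. Sox11 was lower in IP (-0.34, SE 0.10; adjusted p = 0.00338, limma) in 9 of 11 animals, with all 6 EYFP animals and 3 of 5 hTyr animals below 0. In the hTyr animals alone its difference was -0.17 (SE 0.13), given with no test because these IP libraries entered the choice.

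Klf6 (0.01), Jun (-0.01), Ifrd1 (0.04) and Gadd45a (-0.11) did not pass over both treatments. For Ifrd1 and Klf6 this mean covered values on both sides of 0. Ifrd1 had IP minus input of 0.95, 0.53, 0.09, 0.19 and 0.05 in hTyr animals and -0.45 to -0.08 in EYFP animals. Every hTyr animal was above 0 and every EYFP animal below it, which held for 0.0318% of all genes. Klf6 had 0.72, 0.50, 0.16, -0.08 and 0.38 in hTyr animals and -0.51 to -0.12 in EYFP animals, without overlap. Tes, Ifrd1 and Klf6 were the 3 of 8 genes whose IP minus input in every hTyr animal exceeded that of every EYFP animal (0.46% of all genes). This difference contains the comparison used in the choice and is given with no test.

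The mean IP minus input in hTyr and EYFP animals was 0.79 and -0.18 for Tnfrsf12a, where animal IP_510 (0.11) lay below the highest EYFP animal (0.32). It was 0.06 and -0.06 for Jun, -0.17 and -0.48 for Sox11, and -0.14 and -0.08 for Gadd45a, all with overlap.

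**Figure D4:**
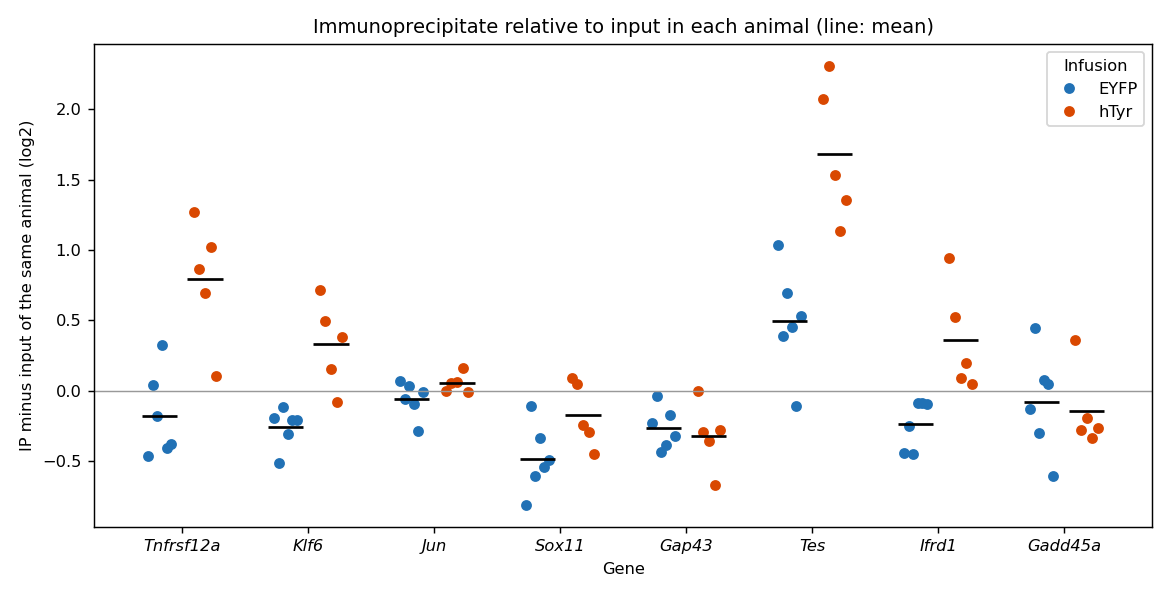
IP minus input of the same animal (log2, vertical axis) for each gene, 1 point per animal, with a line at the mean of each treatment. In Tes, Ifrd1 and Klf6 every hTyr point lies above every EYFP point, and in Gap43 all 11 points lie below 0.

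The share of noradrenergic RNA differed among IP libraries. The noradrenergic score, the mean log2 CPM of the 14 markers, was 6.38, 5.83, 5.22, 5.33 and 5.49 in hTyr IP (animals IP_501, IP_502, IP_508, IP_509 and IP_510) and 5.01 to 5.84 in EYFP IP. Animals IP_501 and IP_502, the highest hTyr libraries for Tes, Ifrd1 and Klf6, also had the highest scores of that group.

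With the noradrenergic score as a covariate, the difference between treatments in the IP was 1.01 in Tes, 0.91 in Tnfrsf12a, 0.56 in Ifrd1 and 0.36 in Klf6. Without animal IP_501 these differences were 1.10, 0.86, 0.53 and 0.40. The covariate lowered each of the 4 differences, and the part of the noradrenergic content in them was not tested.

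**Figure D5:**
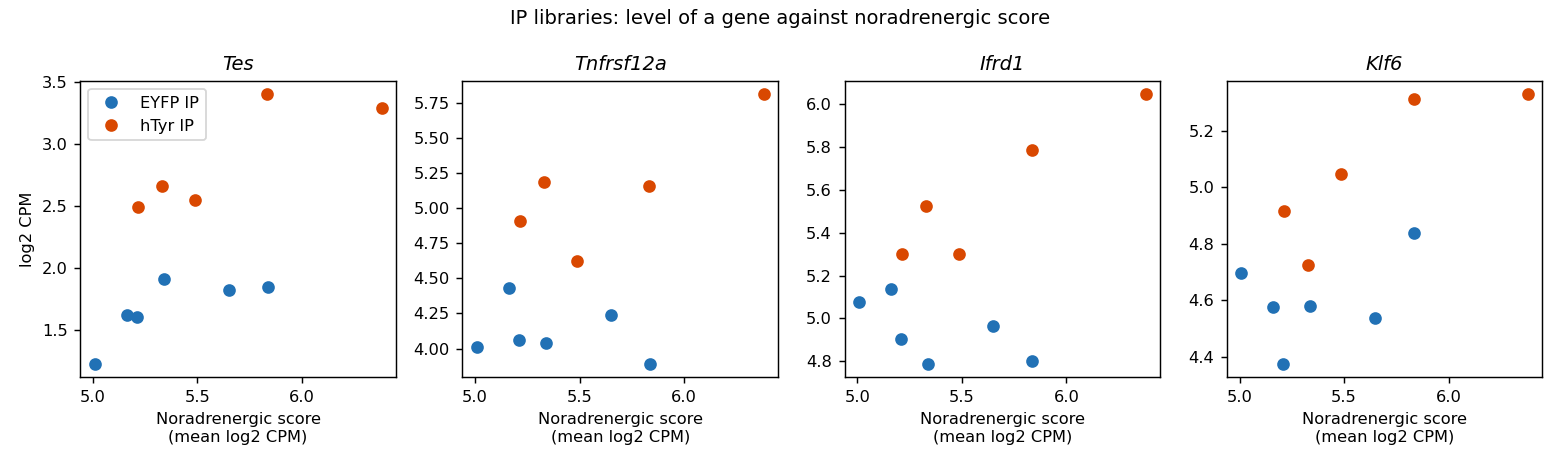
Level (log2 CPM, vertical axis) of Tes, Tnfrsf12a, Ifrd1 and Klf6 against the noradrenergic score (mean log2 CPM of 14 markers) in the 11 IP libraries. The point farthest right is hTyr animal IP_501 (6.38), and no EYFP library has a score above 5.84.

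Correlations among the 8 genes were computed within groups. Pearson's r of the 28 pairs of genes was taken over deviations from the group means in the 11 IP libraries. It ran from -0.29 to 0.88 with a median of 0.35. Of the 28 pairs 25 were above 0, against 49.9% of the pairs of all genes. The highest was that of Tnfrsf12a with Ifrd1. In the 11 input libraries r ran from -0.83 to 0.65 with a median of -0.04. These are descriptions over libraries that share depth and noradrenergic content.

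For each member, the 3 genes with the most similar deviations over the 22 libraries were picked from all genes. Such r are high by the choice itself and carry no test. The picked genes included Ddit3, the gene of the stress factor CHOP, for Ifrd1 (r = 0.79). For Tes they included Adra2a, the noradrenergic autoreceptor gene (r = 0.74). Neither was the closest gene. Ctnnbl1 was closest to Tes (r = 0.78), Arl2 to Tnfrsf12a (r = 0.86), Slc41a2 to Klf6 (r = 0.85) and Sprn to Jun (r = 0.87). Fam196a was closest to Sox11 (r = 0.87), Tunar to Gap43 (r = 0.83), LOC102639013 to Ifrd1 (r = 0.83) and B230217O12Rik to Gadd45a (r = 0.78).

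Other genes of axon injury and regrowth, 182 written in 13 lists, were measured for 148. The lists were chosen with earlier results of these libraries known. Their counts and adjusted p, that of Atf3 among them, are therefore no independent test. Between treatments in the IP, 1 of 148 was higher past the threshold and 0 lower, and 10 had an unadjusted p under 0.05, as 6.19% of all genes did. Their median difference was 0.01, against -0.01 for all genes. That gene was Atf3, which encodes a partner of c-Jun raised by axon injury. Atf3 had 2.60 to 3.56 in hTyr IP and 1.11 to 2.43 in EYFP IP, a difference of 1.54 (SE 0.25; adjusted p = 0.0287, limma) without overlap. It did not pass in 12 of 20 alternative settings, among them leaving out any 1 of 9 animals, quantile normalization and the noradrenergic score as a covariate (adjusted p 0.00706 to 0.493, difference 0.80 to 1.98).

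The other AP-1 genes Junb and Jund differed by 0.29 and 0.13 in the IP, and neither passed (adjusted p = 0.852 and 0.900, limma). Relatives of the 8 genes did not pass either. The SoxC gene Sox4 differed by -0.06 (adjusted p = 0.978), Klf7 by -0.03 (0.987), the Gap43 relative Basp1 by 0.11 (0.913) and Ifrd2 by -0.35 (0.838). Gadd45b differed by 0.16 (adjusted p = 0.864) and Gadd45g by 0.03 (0.986). The IP groups did not overlap in 3 of the 148 genes, where 0.651% of all genes did not (0.262% of all with hTyr lower). Beside Atf3 these were Adcyap1, the gene of the neuropeptide PACAP, higher in hTyr IP (0.61, adjusted p = 0.479), and Lpp, a LIM-domain adhesion gene, lower (-0.67, adjusted p = 0.533).

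In the input, 0 of the 148 genes passed in either direction (0.00794% of all genes), and 7 had an unadjusted p under 0.05 (3.03% of all genes). Gadd45b had a difference of 0.31 there and Jund of 0.18 (adjusted p = 0.990 for both, limma), and Atf3 had 0.26 (adjusted p = 0.990).

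Between IP and input over both treatments, 53 of the 148 genes were higher and 50 lower (limma), shares near the 33.5% and 36.2% of all genes. Higher in IP were Gal, the gene of the neuropeptide galanin (3.16, adjusted p = 5.65e-13), the hypoxia factor gene Hif1a (1.58, adjusted p = 1.34e-12), the cytokine kinase gene Jak1 (1.40, adjusted p = 3.36e-12) and the adhesion gene Chl1 (1.39, adjusted p = 2.07e-11), each in 11 of 11 animals. Of 21 growth cone and cytoskeleton genes 12 were higher and 4 lower, with the tubulin genes Tubb2a (1.02, adjusted p = 1.88e-11) and Tubb2b (0.92, adjusted p = 4.87e-11) among the higher. Gap43 and its relative Basp1 (-0.22, adjusted p = 0.00999) were lower.

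For the families of the transcription factors, counts are to be read against the 36.2% of all genes that were lower in IP. Of 14 injury transcription factor genes 4 were higher and 7 lower. Of 10 other Kruppel-like factor genes 0 were higher and 7 lower, with Klf7 at -0.65 (adjusted p = 9.03e-07) and Klf9 at -0.50 (adjusted p = 1.15e-06). Of 9 AP-1 and ATF genes 1 was higher, Atf3 (0.61, adjusted p = 0.00161), and 5 were lower, including Atf7 (-0.93, adjusted p = 1.79e-10) and Jund (-0.49, adjusted p = 2.93e-06). The call of Atf3 was lost with quantile normalization and in the EYFP animals alone, where its difference was 0.04. The SoxC genes Sox12 (-1.19, adjusted p = 8.89e-10) and Sox4 (-0.78, adjusted p = 3.95e-07) were lower, as Sox11 was.

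Of 8 other TNF receptor superfamily genes 0 were higher and 6 lower, among them Tnfrsf1a (-0.52, adjusted p = 0.000134). In TWEAK receptor signalling 1 of 11 genes was higher, Birc2 (0.78, adjusted p = 2.00e-09), an inhibitor of apoptosis gene, and 5 were lower, with the adaptor gene Traf3 at -0.64 (adjusted p = 7.35e-09) and the ligand gene Tnfsf12 at -0.62 (adjusted p = 5.06e-05). Of 16 genes of the JNK pathway 7 were higher and 4 lower, with the kinase gene Map3k13 at -0.60 (adjusted p = 1.25e-07) and the JNK1 gene Mapk8 at 0.42 (adjusted p = 2.06e-06). Among 15 calmodulin-binding relatives of GAP-43 and LIM partners of testin, 3 were higher and 8 lower, with the adhesion gene Zyx, which encodes zyxin, at -0.62 (adjusted p = 1.52e-07) and the planar polarity gene Prickle1 at 0.59 (adjusted p = 3.68e-08).

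Exons of 4 of the 8 genes overlap an antisense gene that is not in the table. The shared bases make up 19.1% of the exon bases in Gadd45a, 7.28% in Jun, 5.48% in Ifrd1 and 2.11% in Tes. The sources used here do not say whether counting used strand, so reads of the partners cannot be told apart.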

How the data were processed

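RNA of 22 libraries from 11 mice was measured as IP and input of each animal. Reads were processed with STAR and featureCounts on mm10, per the submitters' processing notes, while their order, versions, annotation, filter and normalization are not given in the sources used here. The authors deposited log2 values for 12596 genes. Back-transformed, the deposited log2 values are CPM with about 2 reads added to each gene before the logarithm: 100% of the values came back as whole reads (tolerance 0.05 reads), with 12654489 to 25100142 reads per library. Reads carry no molecular identifiers, so depth speaks of counting error only.

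Genes were tested on the deposited values with limma 3.58.1 in R 4.3.3 (mean-variance trend, Benjamini-Hochberg adjustment over all genes, threshold 0.05). The fit was tested on simulated data. IP against input used all 22 libraries with treatments weighted by animals and without pairing the libraries of an animal. The comparison of hTyr against EYFP used the 11 libraries of the IP or of the input. The genes, lists and tests were chosen with earlier results of these data known. All 8 genes are named whatever their values. From each of the other lists the genes past the threshold that changed most could be named, up to 2 in each direction, together with relatives named whatever their values, and for likeness the 3 genes with the highest r per gene. Samples of a group come from separate animals by number.

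Animal numbers pair IP with input. Deviations of the 2 libraries of an animal from their group means correlated across genes at a mean r of 0.448 (0.279 to 0.626), against -0.04 between animals, and 11 of 11 animals correlated best with their own number. Alternatives were no trend, quantile normalization, median centring, the upper 75% of genes, log2(CPM + 5), sample quality weights, leaving out each animal, the replicate block, each treatment alone, and total reads, a glial score or the noradrenergic score as a covariate. Voom in limma on the recovered reads was chosen after seeing the data, and the planned count test was not run since the deposited unit is log2. Exon lengths came from GENCODE M21, matched by symbol for 12087 genes (96.0%), and promoters from RefSeq (GRCm38.p6). Figures were drawn with Python 3.11.15.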

Additional observations from a re-analysis of the deposited data

Results flagged for a closer look

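In EYFP input, the lowest library in Tes, that of animal IP_504, had a log2 CPM of 0.81 against 1.17 in the next library, a gap of 0.679 of the range of the group. Such a gap to the nearest library was looked for in 32 groups of libraries (8 genes in 4 groups), of which chance would mark about 1.6, and 1 was found. Without animal IP_504, the difference between hTyr and EYFP in the input was -0.05 in Tes, and it did not pass the threshold (adjusted p = 0.9997, limma).

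IP minus input of Ifrd1 was above 0 in all 5 hTyr animals and below 0 in all 6 EYFP animals, with means of 0.36 and -0.23 that differed by 0.60 on the log2 scale. The difference was not tested, because the gene was chosen with this contrast in view.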

How the results depend on the processing

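In IP against input, leaving out each animal gave 3 to 4 of the 8 genes past the threshold over both treatments. Each treatment alone gave 5, and the replicate block gave 4. Of all 12596 genes, 8435 to 8779 passed with each animal left out and 9322 with the block. In EYFP animals alone 7123 passed, and in hTyr animals alone 6853. The counts of the 8 genes in each treatment alone use IP libraries that entered the choice. The block, in which an animal's number pairs its IP with its input, changed no call of the 8 genes in that comparison, and with it 5 genes of the table passed for the treatment effect in IP minus that in input, against 1 without it. In the EYFP animals alone the sign of IP minus input was reversed in Tnfrsf12a (-0.18), Klf6 (-0.26) and Ifrd1 (-0.23). These values are given with no test, because the EYFP IP libraries also entered the choice of the genes. Of all genes, leaving out each animal gave 0 to 2 past the threshold between treatments in input, 3 to 11 in IP (11 without animal IP_508) and 0 to 5 for the difference between both effects, against 1, 7 and 1. With total reads as a covariate 0 passed in input and 3 in IP, and with sample quality weights 3 passed for the difference. Voom on the recovered reads called 7 genes in the IP, 1 in input and 8789 between IP and input. The causes were not tested. Among the 8 genes, 0 passed between treatments in input under any alternative run. With the upper 75% of genes kept, Tes and Gadd45a were not tested. The edgeR alternative was not run. Depth limits Tes most, with 34 reads in its lowest library.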
